A study of Homo sapiens with 6 samples.

Results

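Replication-dependent histone genes encode the core histones H2A, H2B, H3 and H4 and the linker histone H1, and were read here from the probe sets that carry a single gene symbol of this nomenclature. The symbols taken begin HIST1, HIST2, HIST3, H1-, H2AC, H2BC, H3C or H4C. They covered 58 probe sets of 50 genes among 19775 genes in all, and where a gene had several, the one with the highest average across the 6 arrays stands for it. By type there were 10 H1, 9 H2A, 14 H2B, 7 H3 and 9 H4 members. The name holds for 43 of the 50. The symbols also took in 3 linker histones known as replication-independent (H1-7, H1-8 and H1-10), 3 pseudogenes (H1-9P, H2AC5P and H4C10P) and the antisense RNA H1-10-AS1, which has no histone type.

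Histone genes of this kind lie in clusters and are transcribed in S phase, when new DNA is packed into nucleosomes, under NPAT, a coactivator at histone locus bodies. Their mRNAs have no introns and mostly end in a stem-loop that binds SLBP, the stem-loop binding protein, in place of a poly(A) tail. Many of the genes can also give a polyadenylated mRNA, a form described in differentiating and resting cells, with H2AC6, H2BC5, H2BC12 and H2BC21 among the examples. Per the labels' protocols the RNA was amplified with an Affymetrix kit that works from the 3' end. Such kits prime on poly(A), so that the arrays read mainly the polyadenylated form, and the stem-loop form was not measured apart from it.

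The study knocked out KDM6A, which encodes a demethylase of histone H3, in Panc1 and BxPC3, established lines of pancreatic ductal adenocarcinoma. Control cells, labelled wild type for KDM6A, gave 1 Panc1 array and 2 BxPC3 arrays, and KDM6A knockout cells gave the same numbers. Knockout cells had received a lentivirus with Cas9 and a guide against KDM6A, had been selected with puromycin and were clones from limiting dilution. The number of clones, a vector in the control cells and separate cultures for replicate BxPC3 arrays are not given in the sources used here, so that p-values measure the spread between these arrays only, which may be technical.

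KDM6A was 6.73 on the Panc1 control and 4.06 on the Panc1 knockout array, and fell in BxPC3 by 0.79 ± 0.12 (SE, adjusted p = 0.0329). All levels are RMA values on the log2 scale, and the medians of the arrays lay between 4.75 and 5.06. All 8 epithelial markers were above the array median on every array of both lines. Of the 3 immune markers measured, PTPRC lay between 2.52 and 2.99, whereas CD3E, at 4.77 to 5.70, was above the median on every array. CD14 was 4.891 on the Panc1 control and 4.102 on the Panc1 knockout array. In BxPC3 it was 5.365 and 5.281 on the controls and 4.853 and 4.927 on the knockouts. Of the 7 fibroblast markers, 4 were above the median on all Panc1 arrays and 3 on all BxPC3 arrays. Some markers moved with knockout. CDH5, an endothelial cadherin, was 6.74 and 6.91 on the BxPC3 controls and 4.86 and 4.41 on the BxPC3 knockouts, while the other 3 endothelial markers did not separate the groups. The mean of the 7 fibroblast markers was 5.33 and 5.19 on the BxPC3 controls and 4.93 and 4.91 on the knockouts, with LUM from 4.56 on both controls to 2.45 and 2.86. CDH1, the epithelial cadherin, was 7.87 on the Panc1 control and 5.78 on the Panc1 knockout array. The part of these in the histone differences was not tested. Differences are knockout minus control on the log2 scale. For BxPC3, with 2 arrays per group, the errors are limma's standard errors, and p-values were adjusted over 14387 tested genes with a threshold of 0.05. Panc1 differences have no replicate check and no p-value. Of the 50 members, 31 were tested because their probe set was above the median of all probe sets on at least 1 array. The median was exceeded on all 6 arrays by 16 members, on 1 to 5 arrays by 15 and on none by 19. Of the tested members 4 (H1-4, H1-8, H2AC8 and H4C13) exceeded it in 1 group only, and thus passed the filter only through a group in which they were high. The counts over tested members are descriptions.

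Many H2A and H2B genes lie head to head and share the stretch between their start sites. Those of H2BC4 with H2AC6, of H2BC21 and of H2AC25 are given because these genes were at least 2-fold lower in Panc1, fell in BxPC3 or share their start region with one that was. That of H4C8, which has a start of its own, is given for contrast in direction in Panc1. The sequences are RefSeq's, on GRCh38.p14. Capitals mark 3 motifs searched on both strands, the octamer ATTTGCAT, the CCAAT box of those letters and the TATA box TATAAA, with overlapping matches run together. The first 3 are on the plus strand, with the H2B or H2A gene named first running to the left, and H4C8 is on the minus strand, in its own reading direction.
H2BC4-H2AC6 (chr6:26123927-26124171): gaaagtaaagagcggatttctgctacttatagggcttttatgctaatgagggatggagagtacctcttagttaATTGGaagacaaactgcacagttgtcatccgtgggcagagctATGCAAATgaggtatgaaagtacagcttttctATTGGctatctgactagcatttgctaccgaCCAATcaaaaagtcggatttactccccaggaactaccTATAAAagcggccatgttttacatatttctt
H2BC21-H2AC20 (chr1:149886683-149886917): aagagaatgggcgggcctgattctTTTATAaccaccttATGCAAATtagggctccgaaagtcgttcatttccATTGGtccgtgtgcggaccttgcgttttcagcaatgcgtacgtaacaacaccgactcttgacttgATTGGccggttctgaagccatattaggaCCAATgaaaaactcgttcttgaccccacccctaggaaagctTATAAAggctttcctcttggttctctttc
H2AC25-H2BC26 (chr1:228457874-228458102): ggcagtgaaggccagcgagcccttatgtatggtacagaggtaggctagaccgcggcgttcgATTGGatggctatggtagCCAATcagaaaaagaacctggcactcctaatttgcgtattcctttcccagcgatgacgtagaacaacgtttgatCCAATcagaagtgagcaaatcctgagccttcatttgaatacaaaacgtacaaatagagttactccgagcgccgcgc
H4C8 (chr6:26285535-26285784): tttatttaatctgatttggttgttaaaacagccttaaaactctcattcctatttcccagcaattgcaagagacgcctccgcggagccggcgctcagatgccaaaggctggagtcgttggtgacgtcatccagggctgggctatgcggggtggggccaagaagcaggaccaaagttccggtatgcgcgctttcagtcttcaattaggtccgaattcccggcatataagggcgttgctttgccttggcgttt

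The stretch between H2BC4 and H2AC6 holds 1 octamer, 3 CCAAT boxes and 1 TATA box. Between H2BC21 and H2AC20 there are 1 octamer, 3 CCAAT boxes and 2 TATA boxes. The stretch between H2AC25 and H2BC26 holds 3 CCAAT boxes and neither of the other motifs, and the 250 bases before H4C8 hold none of the 3. H2AC20 and H2BC26 were not analysed here. Promoter windows from 250 bases before to 50 after a start were given for 43 of the 50 members, 38 of them on chromosome 6. H1-9P, H1-10-AS1, H2AC5P, H2BC12L, H3C11, H4C1 and H4C10P had no window. The octamer, which is known as the element of H2B promoters bound by POU2F1, stood in 10 of 13 H2B and 6 of 8 H2A windows and in 0 of the H1, H3 and H4 windows, against 1.77% of all 35116 windows. CCAAT occurred in 37 of the 43 member windows, though in only 2 of 7 H4 windows, and in 34.6% of all windows. TATAAA occurred in 28 of the 43 and in 11.5% of all windows. A match describes these letters alone.

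In BxPC3, 1 tested member fell in the knockout arrays past the threshold and none rose, H2AC25 being the one that fell. That is 1 of 31 members beside 3.58% of all tested genes called lower, 1.14% called higher and 4.72% called in either direction, so the share of members called lies near the background. At an unadjusted p under 0.05 there were 5 members, beside 19.9% of all tested genes. Both knockout arrays lay below both control arrays for 8 of 31 members (26.8% of all tested genes) and above them for 1, H1-6 (23.9%). Over the 31 members 19 were lower and 12 higher, with a median difference of -0.02, beside 49.3% lower, 50.6% higher and a median of 0.00 over all tested genes.

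In Panc1, H2AC6 and H2BC21 were more than 2-fold lower on the knockout array and no member was 2-fold higher. H2BC21 was below the array median on that array. Over all tested genes 3.86% passed 2-fold in Panc1, 3.28% downward and 0.577% upward. By any amount 16 members were lower, 14 higher and 1 equal, with a median of -0.04, beside 49.4% lower and 48.7% higher over all tested genes. By type the counts ran apart, with all tested H2B genes lower and all tested H4 genes higher. In RNA from whole cultures, fewer cells expressing a gene and less RNA per cell cannot be told apart.

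**Figure D1:**
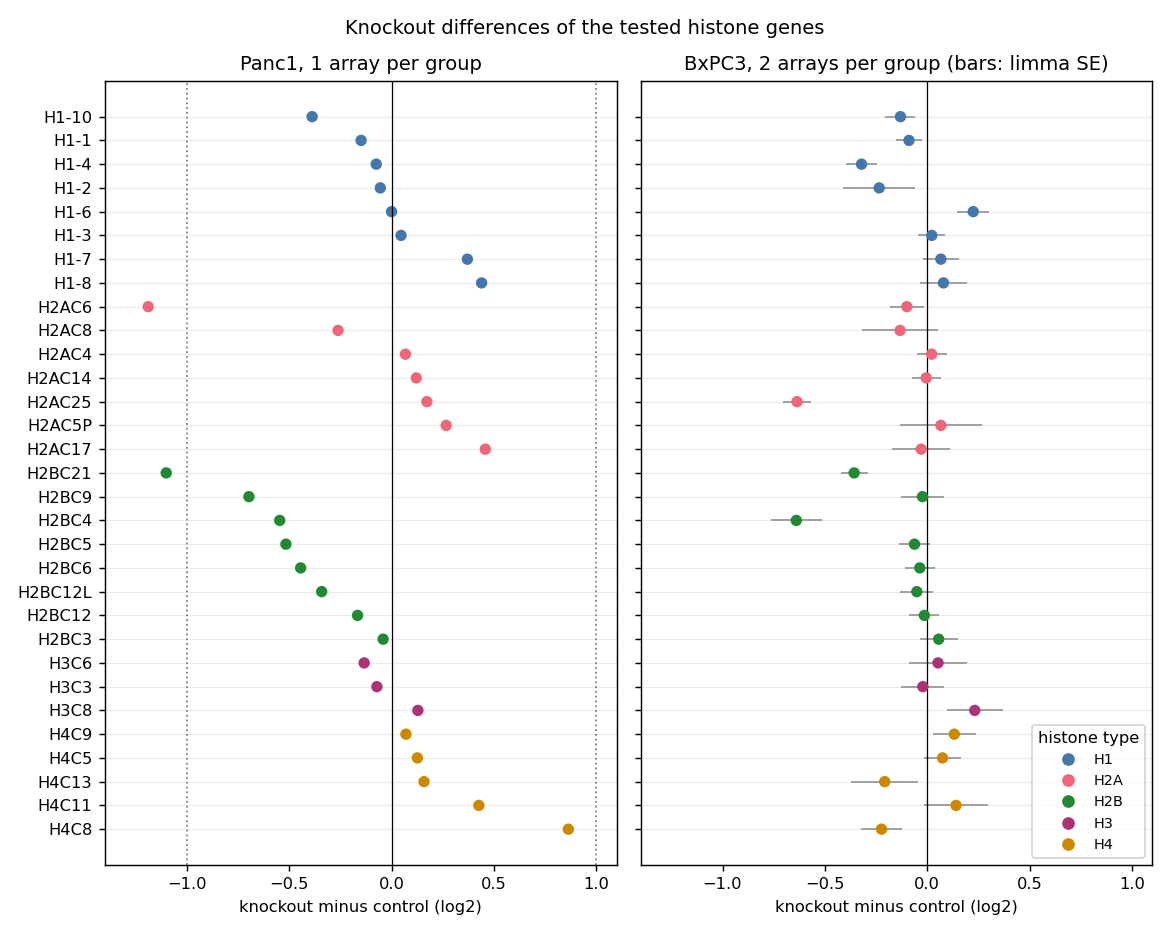
Knockout minus control differences on the log2 scale for the 31 tested members, grouped by histone type (colours), in Panc1 (left, 1 array per group, dotted lines at 2-fold) and BxPC3 (right, group means of 2 arrays, bars are limma standard errors). All 8 H2B points lie left of 0 in Panc1 and all 5 H4 points right of it. In BxPC3 7 H2B points lie left of 0 and 1 right, from -0.64 to 0.06. Of the H4 points there 2 lie left and 3 right, from -0.22 to 0.14.

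H2B, the partner of H2A in the nucleosome, gave a Panc1 median below 0. The 8 tested H2B genes had Panc1 differences from -1.10 to -0.04 with a median of -0.48, whereas their BxPC3 median was -0.04 with 7 lower and 1 higher. Including the H2B members not tested, 10 of 14 were lower in Panc1 with a median of -0.17, beside a median of 0.04 over all 19775 genes. Of the 8, the probe sets of H2BC5, H2BC6, H2BC9, H2BC12L and H2BC21 are of kinds (suffixes _x_at and _s_at) that can hybridise to several similar transcripts, so the genes are not independent readings and each value is uncertain. Those 5 had a Panc1 median of -0.52. The other 3, with probe sets of the plain kind, differed by -0.55 (H2BC4), -0.17 (H2BC12) and -0.04 (H2BC3).

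H2BC21 was 5.73 on the Panc1 control and 4.63 on the Panc1 knockout array, and in BxPC3 7.26 and 7.21 on the control and 6.89 and 6.87 on the knockout arrays. The Panc1 knockout array was the lower and lay below its array median, and in BxPC3 both knockout arrays lay below both control arrays. The measured Panc1 level was 2.14-fold lower and the BxPC3 difference -0.36 ± 0.07 (SE, adjusted p = 0.0550), which missed the threshold.

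H2BC4 read 4.54 and 3.99 on the Panc1 control and knockout arrays, 6.15 and 6.42 on the BxPC3 controls and 5.75 and 5.54 on the BxPC3 knockouts. It was lower with knockout in both lines, without overlap in BxPC3, but on Panc1 arrays it stayed below the array median. Its difference was -0.55 in Panc1 and -0.64 ± 0.13 in BxPC3, a 1.56-fold lower level (SE, adjusted p = 0.0638).

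H2BC12 was 11.04 and 10.87 on the Panc1 control and knockout arrays, 11.81 and 11.83 on the BxPC3 controls and 11.86 and 11.75 on the BxPC3 knockouts. It differed by -0.17 in Panc1, and in BxPC3 the groups overlapped, with a difference of -0.01 ± 0.07 (SE, adjusted p = 0.948). H2BC9, read by a probe set of the _x_at kind, was lower on the knockout array of Panc1, from 7.24 to 6.54, and overlapped between the groups in BxPC3 with a difference of -0.02. H2BC5 went from 9.01 to 8.50 in Panc1 and differed by -0.06 in BxPC3. H2BC3 had the smallest Panc1 difference of the type, -0.04, and was the 1 tested H2B gene that was higher in BxPC3, by 0.06.

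**Figure D2:**
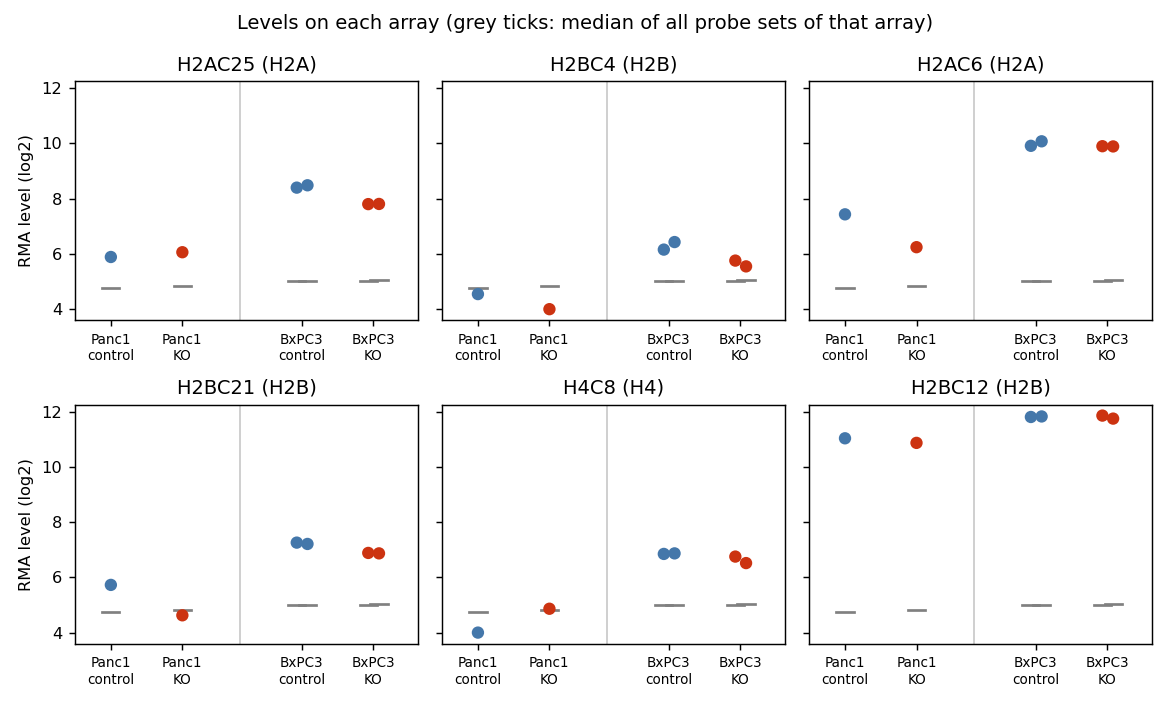
RMA level (log2) of 6 histone genes on each of the 6 arrays, control in blue and knockout (KO) in red, with grey ticks for the median of all probe sets of that array. In BxPC3 both knockout arrays lie below both controls for every gene shown but H2BC12. The genes other than H2BC12 were picked for their differences, so this does not describe the members at large. Over all tested members it held for 8 of 31, beside 26.8% of all tested genes. H2AC6 and H2BC21 differ by more than 2-fold in Panc1, and H2BC12 stays between 10.87 and 11.86 throughout. Panc1 and BxPC3 levels were scaled apart and are not set against each other.

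H2A genes differed from each other in which line held the difference. In Panc1, 2 of the 7 tested H2A members were lower and 5 higher, with a median of 0.12, and in BxPC3 5 were lower and 2 higher, with a median of -0.03. H2AC25, an H2A gene on chromosome 1, was 5.88 and 6.06 on the Panc1 control and knockout arrays, 8.39 and 8.48 on the BxPC3 controls and 7.80 and 7.80 on the BxPC3 knockouts. Control and knockout arrays of BxPC3 did not overlap, and in Panc1 the knockout array was the higher. The gene fell in BxPC3 by 0.64 ± 0.07 (SE, adjusted p = 0.0142), a 1.55-fold lower level. The call was lost without the control 1 array (adjusted p = 0.122), without control 2 (0.181) and without knockout 2 (0.0583), while the difference stayed between -0.68 and -0.59.

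H2AC6, which shares its start region with H2BC4 in the first sequence above, read 7.43 on the Panc1 control and 6.24 on the Panc1 knockout array, 9.91 and 10.07 on the BxPC3 controls and 9.89 and 9.89 on the BxPC3 knockouts. The Panc1 knockout array was 2.28-fold lower, the largest difference of any member there. In BxPC3 the knockout arrays lay just below the controls, with a difference of -0.10 ± 0.08 (SE, adjusted p = 0.573). The pair thus had Panc1 differences of -1.19 for H2AC6 and -0.55 for H2BC4, and BxPC3 differences of -0.10 and -0.64. H2AC17 had the largest difference upward among the tested H2A genes in Panc1, 0.46, and -0.03 in BxPC3. H2AC4 differed by 0.07 and 0.02, and H2AC14 by 0.12 and -0.01. Of the 13 tested H2A and H2B genes with a window, the 11 with an octamer had a Panc1 median of -0.26, with 8 lower and 3 higher. H2AC25 and H2BC5 had no octamer, and their median was -0.17, with 1 lower and 1 higher. The octamer count mixes the types, since 6 of the 11 are H2B genes, all lower, with a median of -0.50. H2BC5, the H2B gene without an octamer, differed by -0.52.

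H4 genes code for one of the most conserved of all proteins. All 5 tested H4 genes were higher on the Panc1 knockout array, by 0.07 to 0.86 with a median of 0.16, and of all 9 H4 members 8 were higher, with a median of 0.24. In BxPC3 2 of the 5 were lower and 3 higher, with a median of 0.07. H4C8 was 4.004 and 4.87 on the Panc1 control and knockout arrays, 6.85 and 6.87 on the BxPC3 controls and 6.76 and 6.52 on the BxPC3 knockouts. It was below the array median on the Panc1 control and just above it on the Panc1 knockout array, and in BxPC3 the knockout arrays were the lower without overlap. Its differences were 1.82-fold higher in Panc1 and -0.22 ± 0.10 in BxPC3 (SE, adjusted p = 0.297). H4C11 differed by 0.43 in Panc1 and 0.14 ± 0.16 in BxPC3 (SE, adjusted p = 0.692). H4C9, at 0.07, had the smallest Panc1 difference of the type, and H4C5, at 0.07, the smallest in BxPC3.

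H3 genes gave little signal, with 3 of 7 members tested. In Panc1 H3C6 and H3C3 were lower, by 0.13 and 0.07, and H3C8 was higher by 0.13. In BxPC3 2 of the 3 tested genes were higher and 1 lower, with a median of 0.05. With the 4 members that stayed below the array median on every array, 6 of 7 were higher, with a median of 0.19 beside 0.01 over all 19775 genes. Only 1 of the 3 tested, H3C8, was above the median on all arrays. H3C8 was 5.93 and 6.02 on the BxPC3 controls and 6.02 and 6.40 on the BxPC3 knockouts, a difference of 0.23 ± 0.14 (SE, adjusted p = 0.432).

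H1 linker histones bind DNA where it enters and leaves the nucleosome, and the 8 tested members showed no common direction. In Panc1 4 were lower, 3 higher and 1 equal, with a median of -0.03, and in BxPC3 4 were lower and 4 higher, with a median of -0.03. H1-4, one of the main somatic linker histones, was 5.27 and 5.18 on the BxPC3 controls and 4.95 and 4.86 on the BxPC3 knockouts. Only the BxPC3 controls were above the array median, so that H1-4 was tested only because of the group in which it was high. The groups did not overlap, and the difference of -0.32 ± 0.08 missed the threshold (SE, adjusted p = 0.0965), with -0.07 in Panc1. H1-6, the testis-specific H1t, differed by 0.22 ± 0.08 in BxPC3 (SE, adjusted p = 0.206) and had the same value on both Panc1 arrays. H1-2, another somatic linker histone, read 9.72 and 9.20 on the BxPC3 controls and 9.26 and 9.19 on the knockouts, so that the control 1 array alone stood above the others, and it differed by -0.23 ± 0.18 (SE, adjusted p = 0.533), with -0.05 in Panc1. H1-3 had the smallest BxPC3 difference of the type, 0.02. Of the replication-independent members, H1-10 went from 9.28 to 8.89 in Panc1 and differed by -0.13 ± 0.07 in BxPC3. The germline genes H1-7 and H1-8 were higher in Panc1 by 0.37 and 0.44, near or below the array median, and differed by 0.07 and 0.08 in BxPC3.

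The 19 members not tested were below the array median throughout. Their Panc1 differences ran from -0.24 to 0.56, with 6 lower, 12 higher and 1 equal, and their BxPC3 differences from -0.37 to 0.39.

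For 4 of the 31 members the knockout difference in Panc1 was distinct from that in BxPC3 (limma interaction contrast, adjusted p under the threshold), beside 14.0% of all tested genes. This test takes the Panc1 arrays to vary as the BxPC3 arrays do. The Panc1 difference exceeded the BxPC3 difference by 0.81 ± 0.12 for H2AC25 (adjusted p = 0.0198) and by 1.09 ± 0.17 for H4C8 (adjusted p = 0.0221). It was the lower for H2AC6, by -1.09 ± 0.14 (adjusted p = 0.0153), and for H2BC21, by -0.74 ± 0.11 (adjusted p = 0.0215). For H2BC4, lower in both lines, the contrast was 0.09 ± 0.22 (adjusted p = 0.803). All 4 calls were lost without either BxPC3 control array, where adjusted p lay between 0.0628 and 0.139. Over both lines together, with cell line as a term in limma, 0 members passed, beside 0.0834% of all tested genes. An unadjusted p under 0.05 was found for 3 of the 31 members, beside 1704 of all 14387 tested genes. The 3 members were H2BC4, with -0.61 ± 0.11 (SE, adjusted p = 0.149), H2BC21, with -0.60 ± 0.16 (adjusted p = 0.274), and H1-4, with -0.24 ± 0.09 (adjusted p = 0.397). H1-4 was above the array median on the BxPC3 controls only.

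Other probe sets gave the same direction only in part. Of the 7 members with several probe sets, 4 had the same sign on all of them in Panc1 and 4 in BxPC3. H1-6, not among the 4 in Panc1, had a difference of 0 there on both its probe sets. The second probe set of H2AC25 differed by -0.50 in BxPC3, where the first was also lower, and by -0.24 in Panc1, where the first was higher by 0.17. The second probe set of H4C8 differed by 0.49 and -0.12. For H3C6, whose first probe set differed by -0.13 in Panc1, the second differed by -1.22 at levels below the array median. Probe sets with several histone symbols name no single gene and were set apart. Of 20 such sets, the 5 for H2B had 2 lower and 3 higher in Panc1, from -0.28 to 0.71, and 4 lower and 1 higher in BxPC3. The 6 for H4 had 4 higher and 2 equal in Panc1, up to 0.51, and 1 lower and 5 higher in BxPC3, from -0.15 to 0.24. One H4 set annotated to 14 H4 genes was 12.42 and 12.65 on the Panc1 control and knockout arrays. In BxPC3 this set was 11.27 and 11.37 on the controls and 11.24 and 11.80 on the knockouts, a difference of 0.21 with overlap.

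Over all genes, Panc1 differences moved with the level. With the tested genes in 10 bins of equal number by Panc1 level, the median difference was 0.10, 0.14 and 0.11 in the 3 lowest bins, -0.14 in bin 5 and 0.00 in the highest. Tested H4 genes lie at levels where the median of all genes is above 0, and the H2B genes H2BC5, H2BC6, H2BC9 and H2BC12L where it is between -0.14 and -0.05. H4C5 (0.126) and H4C9 (0.070) were below the median of their bin, 0.143. H4C8 (0.86) and H4C13 (0.16) were above theirs, 0.10, as was H4C11 (0.43) beside 0.11. H2BC21 and H2BC4, at -1.10 and -0.55, lie in bins with medians of 0.14 and 0.10, and H2AC6, at -1.19, in one with a median of -0.14. When each array was centred on the median of the tested genes, the Panc1 median of all genes moved to 0.20 and the all-gene counts of 2-fold lower and higher genes from 472 and 83 to 301 and 152. Relative to array medians set so, 6 of 8 H2B genes were lower and 2 higher, with H2BC12 at 0.03, 5 of 5 H4 and 3 of 3 H3 genes were higher, and H4C8 (1.06) in place of H2AC6 (-0.99) and H2BC21 (-0.90) was past 2-fold. With cyclic loess within a line, 8 of 8 H2B genes were lower, with a median of -0.40. Of the H4 genes 4 of 5 were then higher, with a median of 0.03. The part of the level trend in the differences by type was not tested.

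**Figure D3:**
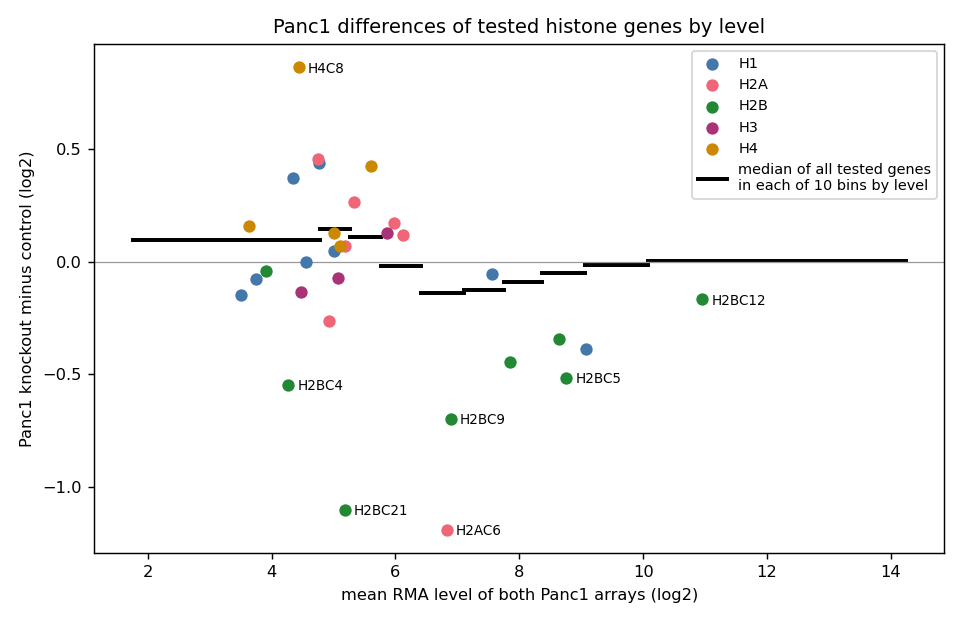
Panc1 knockout minus control difference (log2) of the 31 tested members against the mean RMA level of both Panc1 arrays (log2), coloured by histone type, with black lines for the median difference of all tested genes in each of 10 bins by level. The H2B points lie below the black line at every level. Of the H4 points, H4C8 (0.86), H4C11 (0.43) and H4C13 (0.16) lie above it, and H4C5 (0.13) and H4C9 (0.07) below it.

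The genes that make, process and degrade histone mRNA were given for comparison. Of the list for histone transcription and 3' processing, 8 of 28 tested genes were lower and 20 higher in Panc1, with a median of 0.14, and in BxPC3 0 passed the limma test (2 at an unadjusted p under 0.05), with a median of -0.01. NPAT differed by 0.07 in Panc1 and -0.0044 in BxPC3, and SLBP by 0.26 and 0.0038. CASP8AP2, a component of histone locus bodies also known as FLASH, went from 8.51 to 7.95 in Panc1, a difference of -0.56, beside -0.02 ± 0.07 in BxPC3 (SE, adjusted p = 0.913). Genes of histone mRNA decay split 12 lower, 11 higher and 1 equal in Panc1 and 12 and 12 in BxPC3, with 0 past the threshold (3 at an unadjusted p under 0.05).

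Genes of S phase, the time of histone synthesis, were higher in Panc1 for 27 of 31 tested, with a median of 0.35, and in BxPC3 for 26 of 31, with a median of 0.07 and 0 past the threshold (5 at an unadjusted p under 0.05). RRM2, a subunit of the enzyme that makes deoxynucleotides, was 11.25 on the Panc1 control and 12.40 on the Panc1 knockout array and differed by 0.04 in BxPC3. The H2B median in Panc1 was thus of the opposite sign to that of the S phase genes, and the part of S phase in the histone differences was not tested. Of the histone chaperones 13 were lower and 15 higher in Panc1, with a median of 0.04, and 9 and 19 in BxPC3, with 0 past the threshold (1 at an unadjusted p under 0.05). The replication-independent variants, which are made outside S phase and include 3 of the H1 members, had 4 lower and 8 higher in Panc1, with a median of 0.23, and 6 and 6 in BxPC3, with 0 past the threshold (2 at an unadjusted p under 0.05). Of the histone genes formerly named with HIST3 or HIST4 whose symbols lie outside the rule, only H3-4 was measured. It was not tested and differed by -0.05 and -0.02.

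**Figure D4:**
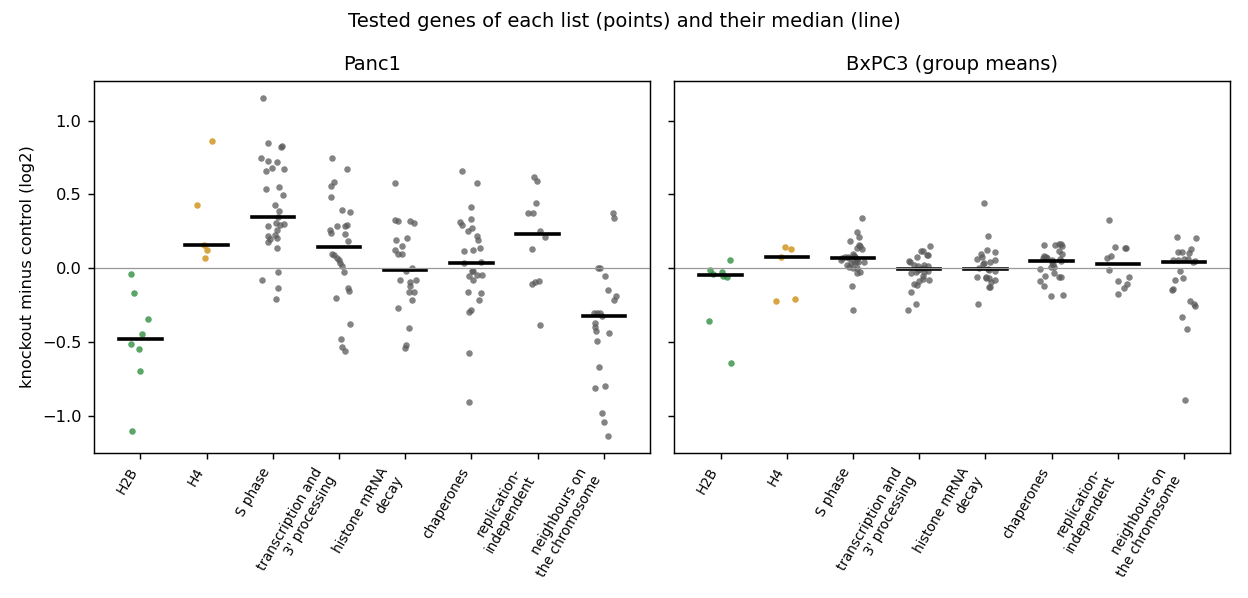
Knockout minus control differences (log2) of the tested genes (points) of the H2B and H4 types and of the lists given for comparison, with the median of each as a black line, in Panc1 (left) and BxPC3 (right, group means of 2 arrays). In Panc1 the medians run from -0.48 for H2B to 0.35 for S phase genes, and in BxPC3 all medians lie between -0.04 and 0.07.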

How the data were processed

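Log2 expression values of 54613 probe sets on 6 arrays were deposited by the authors, made with RMA in the affy package per the submitters' processing notes (versions not given in the sources used here). No probe set had equal values between lines (0), while 2895 did between the Panc1 arrays, so levels were compared within a line only. RMA scales arrays onto each other, which removes shifts common to most genes, and understates differences of dim probe sets. Depth does not apply, and the number of arrays limits the precision.

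A single symbol was annotated to 41091 probe sets, several to 1801 and none to 11721. Of the first, 41037 matched the RefSeq gene table by identifier. Genes were tested with limma 3.58.1 in R 4.3.3, with 1 mean per group (4 groups), 2 residual degrees of freedom from BxPC3 and 3.08 prior degrees of freedom, and Benjamini-Hochberg adjustment. The model over both lines had 3 residual degrees of freedom. The steps were tested on simulated data. Named are histone genes past a threshold or 2-fold different in Panc1, the highest in mean of each type, those with the largest and smallest difference per type and line, the replication-independent linker histones, and, of other lists, called or 2-fold different genes with NPAT, SLBP and CASP8AP2. H2BC5, H2BC6, H2BC9, H2BC12L, H2AC17, H3-4, PTPRC, CD3E, CD14, CDH5, LUM and CDH1 fall outside this rule and were named after their values were seen. The members and lists were chosen with earlier results of these data known. Alternatives covered the filter, the scaling, the variance prior, the choice of probe set, the replicate block and leaving out each BxPC3 array.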

Additional observations from a re-analysis of the deposited data

Results flagged for a closer look

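The knockout difference in Panc1 was distinct from that in BxPC3, by a test of the difference itself, for 4 of 31 tested histone genes. H2AC6 had a difference between the lines of -1.09, from -1.19 in Panc1 and -0.10 in BxPC3. For H2BC21 it was -0.74, from -1.10 and -0.36, both downward. For H2AC25 it was 0.81, from 0.17 and -0.64, and for H4C8 1.09, from 0.86 and -0.22. The second probe set of H2AC25 differed by -0.24 in Panc1, and the call was lost with the mean of its probe sets. H2AC6 is read by a probe set with the suffix _s_at, as is H2BC21. H2BC21 was below the array median on the Panc1 knockout array and H4C8 on the Panc1 control array. The share of all tested genes past the threshold for this contrast was 14.0%, so that of the members lies near the background. Panc1 gave 1 array per group, and all 4 calls were lost when either BxPC3 control array was left out.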

How the results depend on the processing

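The count of 1 called member in BxPC3 became 2 when dim probe sets were filtered more strictly and with cyclic loess (H2BC21 added), and 3 with a variance prior that follows expression and with the mean of all probe sets of a gene (H2BC4 and H2BC21 added), and ran from 0 to 1 when a BxPC3 array was left out. The Panc1 count of 2 became 1 (H4C8, higher) with centred arrays and 0 with probe sets of the plain kind. The interaction count of 4 became 7 with the variance prior and 2 with plain probe sets, and ran from 0 to 5 when an array was left out. Over all genes the interaction count went from 2008 of 14387 to 3324 with the variance prior and 1439 of 11383 with plain probe sets. The member counts in those settings thus moved the same way as the all-gene counts, with 21 members tested on plain probe sets. H2AC25 lost its interaction call with the mean of its probe sets. The count over both lines was 0 in every setting run.

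Medians by type moved as follows. H1 in BxPC3 was 0.022 with the stricter filter and with plain probe sets, -0.089 with averaged probe sets and -0.061 to 0.025 without 1 array, and in Panc1 0.17 centred and -0.087 with loess. H2A in BxPC3 ran from -0.096 to 0.042 without 1 array, and in Panc1 was 0.32 centred and 0.23 with quantile scaling. H2B in Panc1 was -0.17 without a filter, -0.28 centred, -0.38 with quantile scaling, -0.40 with loess and -0.17 with plain probe sets. H3 was 0.041 to 0.25 in BxPC3 without 1 array and 0.13 in Panc1 centred. H4 was -0.079 to 0.17 in BxPC3 without 1 array and 0.36 in Panc1 centred. With loess the H4 median in Panc1 was 0.03, beside 0.16 in the main setting, a change not counted as moved. Over these counts and medians, 104 alternative values stayed within 1.5 times the count or, for medians, within the BxPC3 spread, and 33 moved. That spread is the SD of a type's median over pairs of a BxPC3 knockout and a BxPC3 control array, 0.14 for H4. Panc1 has no replicate arrays, so its medians were judged by the BxPC3 spread.

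With the replicate number as a block, 1 member (H2AC25) was called, and 384 of all genes in place of 679. Same-numbered BxPC3 arrays deviated from their group means with a correlation of -0.17 over genes, so the numbers were not taken to pair the samples. A crossed pairing, chosen after seeing the data, called 2 members and 455 genes. Over all genes the BxPC3 count was 445 without a filter, 460 with plain probe sets, 1317 with the variance prior, and 94, 89, 610 and 318 without control 1, control 2, knockout 1 and knockout 2. Many members lie near or below the array median, where RMA gives differences that are too small, and 11 of the 50 rest on probe sets that can hybridise to paralogs. Panc1 has 1 array per group.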

Other observations

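Of 23 tested genes that neighbour the histone clusters, from a list of 28, 19 were lower in Panc1, beside 49.4% of all tested genes. Another 2 were higher and 2 equal, with a Panc1 median of -0.32. In BxPC3 11 of these neighbours were lower and 12 higher, with a median of 0.04. BTN3A3, a butyrophilin gene beside the chromosome 6 cluster, was 6.41 and 6.56 on the BxPC3 controls and 5.72 and 5.46 on the BxPC3 knockouts. It fell there by 0.90 ± 0.11 (SE, limma adjusted p = 0.0204), and in Panc1 it differed by -0.15. The call was lost without control 1 (adjusted p = 0.0972), control 2 (0.157) or knockout 2 (0.0669). BTN3A1, of the same family, was 6.85 on the Panc1 control and 5.81 on the Panc1 knockout array, and differed by -0.41 ± 0.08 in BxPC3 (adjusted p = 0.0705). MTMR11, which lies near the chromosome 1 cluster, went from 6.83 to 5.70 in Panc1 and differed by 0.05 in BxPC3. No test compared the neighbours with other genes.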
